A study of Mus musculus with 10 samples.

Results

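The unfolded protein response genes described here are 10 transcripts of the endoplasmic reticulum (ER) stress pathway: Hspa5, Hsp90b1, Calr, Pdia4, Herpud1, Dnajb9, Xbp1, Atf4, Ddit3 and Trib3. They were chosen by gene symbol, with no cutoff on a measured value, but with earlier results of these data known. All 10 were found among the 53167 listed genes, and all 10 passed the filter on low counts that kept 14415 genes. They were measured in wild-type primary epithelial cells isolated from mouse mammary gland and grown in DMEM with 10% FBS and 1% penicillin/streptomycin. The BGN group held 5 samples to which biglycan protein, a small proteoglycan of the extracellular matrix, had been added at 100 ng/mL, and the Control group 5 samples to which no protein was added. The labels name no vehicle, duration, age or sex, and do not say whether the samples were separate cultures or animals. The p-values of the group comparison therefore set a difference only against the scatter among these samples, which may be technical scatter. RNA was poly-A selected, and each library held between 18292624 and 21820560 counted reads.

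Cells that fold more protein in the ER than its chaperones can handle start the unfolded protein response. Its sensors are IRE1, which splices the Xbp1 mRNA into the form that encodes an active transcription factor, PERK, which phosphorylates eIF2alpha and so favours translation of Atf4, and ATF6, which is cut in the Golgi to free a transcription factor. Chaperones such as Hspa5 (BiP) are classical ATF6 and XBP1 targets, whereas Ddit3 (CHOP) and Trib3 lie downstream of ATF4. In the mammary gland the pathway is known from secretory cells that make large amounts of milk protein. Counts per gene do not separate spliced from unspliced Xbp1 mRNA, and phosphorylation, cleavage and translation were not measured.

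The promoter stretches that carry the ER stress elements are shown first, as a description. RefSeq promoter windows (GRCm38.p6, 250 bases before to 50 bases after the annotated start) were matched by symbol for all 10 members. The ER stress response element, ERSE, was searched as CCAAT followed by any 9 bases and then CCACG, and ERSE-II as ATTGG, any base, then CCACG. The XBP1-type element UPRE was searched as TGACGTGG and the ATF4-type element CARE as TGATGNAAN. All were searched on both strands, and no site found in a member overlapped another. ERSE stood in the windows of Hspa5, Hsp90b1 and Calr, 3 of 10 members, against 39 of all 32851 windows (0.119%). ERSE-II stood in the window of Herpud1 alone among the members, against 12 of all windows (0.0365%). CARE stood in the windows of Herpud1 and Trib3, against 1299 of all windows (3.95%), and UPRE in 0 members, against 222 of all windows (0.676%). The 250 bases before the start of the 4 genes with an ERSE or ERSE-II are given 5′ to 3′ on the strand of the gene, with the matched elements in capitals.
Hspa5, chr2:34771840-34772089, plus strand: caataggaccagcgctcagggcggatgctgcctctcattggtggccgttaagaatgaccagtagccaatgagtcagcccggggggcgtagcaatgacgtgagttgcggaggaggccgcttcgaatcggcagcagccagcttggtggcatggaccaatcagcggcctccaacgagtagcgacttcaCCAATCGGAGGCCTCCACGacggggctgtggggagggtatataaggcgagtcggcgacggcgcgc
Hsp90b1, chr10:86705445-86705694, minus strand: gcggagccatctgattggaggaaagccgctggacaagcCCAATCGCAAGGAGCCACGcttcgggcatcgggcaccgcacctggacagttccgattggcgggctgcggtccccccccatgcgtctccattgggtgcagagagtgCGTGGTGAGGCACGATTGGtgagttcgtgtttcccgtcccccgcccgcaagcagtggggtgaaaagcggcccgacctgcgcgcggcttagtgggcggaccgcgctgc
Calr, chr8:84846932-84847181, minus strand: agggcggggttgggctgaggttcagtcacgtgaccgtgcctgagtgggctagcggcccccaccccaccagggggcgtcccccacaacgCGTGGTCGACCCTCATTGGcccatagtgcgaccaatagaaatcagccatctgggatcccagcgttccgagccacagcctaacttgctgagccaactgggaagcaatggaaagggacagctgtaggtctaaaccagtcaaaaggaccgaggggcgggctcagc
Herpud1, chr8:94386179-94386428, plus strand: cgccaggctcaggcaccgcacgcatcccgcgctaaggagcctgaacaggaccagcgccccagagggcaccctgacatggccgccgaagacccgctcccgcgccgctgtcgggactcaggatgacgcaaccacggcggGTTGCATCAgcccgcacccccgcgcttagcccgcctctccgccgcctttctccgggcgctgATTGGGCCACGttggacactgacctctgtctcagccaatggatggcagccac
The Hspa5 element, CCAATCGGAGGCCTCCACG, lay 65 to 47 bases before the start. Hsp90b1 had an element at 212 to 194 bases and another, on the opposite strand, at 107 to 89 bases before the start. The Calr element was on the opposite strand, 162 to 144 bases before the start. In Herpud1 the capitals mark CARE on the opposite strand, 113 to 105 bases before the start, and ERSE-II, 52 to 42 bases before it. The windows of Pdia4, Dnajb9, Xbp1, Atf4 and Ddit3 held none of these 4 letter strings. A match is a description of the letters, not evidence of binding in these cells. ERSE and ERSE-II are known from ER stress genes such as these, so their matches among the members are not an independent finding.

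No member passed the test of BGN against Control across all genes. With edgeR's quasi-likelihood test and Benjamini-Hochberg adjustment over 14415 genes, 0 members passed an adjusted p of 0.05 in either direction, as for 0% of all tested genes. The smallest adjusted p among the members was 0.945. DESeq2 and limma-voom, the latter run with library quality weights throughout, also called 0 members. Unadjusted p-values under 0.05 were found for 2 members by edgeR, 1 by DESeq2 and 0 by limma-voom, against 4.81% of all tested genes by edgeR. The groups overlapped for all 10 members, and 0.728% of all tested genes had groups without overlap. Estimates lay below 0 for 8 members and above 0 for 2, against 52% of all tested genes below 0. The median log2 fold change was -0.032 over the members and -0.0040 over all tested genes. The estimates were narrow: the 95% interval stayed inside a 1.25-fold difference for 8 of 10 members, against 69.5% of all tested genes, and inside a 1.5-fold difference for 10 of 10, against 84.9%.

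**Figure D1:**
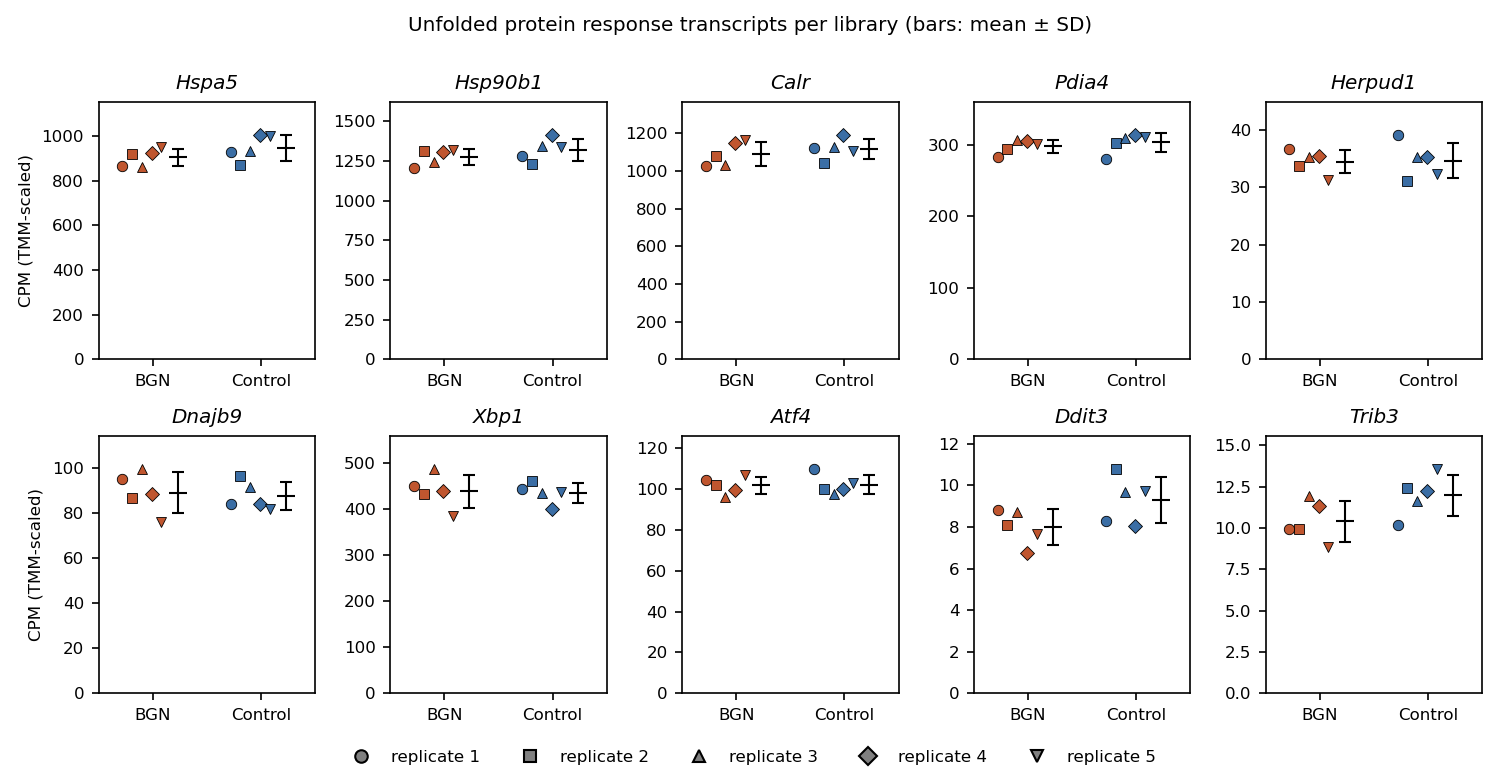
CPM (TMM-scaled) of each member in every library, with BGN at the left and Control at the right of each panel, a symbol for each replicate number, and the mean ± SD of 5 libraries beside the points. The groups overlap in all 10 panels, and each axis starts at 0.

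The ER chaperones had small estimates below 0 that did not pass the test. CPM is a gene's count relative to its library total, scaled with TMM factors to the usual common depth, and group values are mean ± SD with n = 5 each. Hspa5, the Hsp70 chaperone of the ER lumen that also holds the sensors inactive, had 866, 919, 863, 924 and 953 CPM over BGN replicates 1 to 5, against 929, 869, 933, 1004 and 1002 CPM over Control replicates 1 to 5. BGN replicates 1 and 3 and Control replicate 2 were lowest, and Control replicates 4 and 5 highest. The means were 905 ± 39.2 CPM over BGN libraries and 947 ± 56.9 CPM over Control libraries, a log2 fold change of -0.066 ± 0.044 (SE; adjusted p = 0.945, edgeR). Its 95% interval ran from -0.16 to 0.026.

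Hsp90b1, the ER-resident Hsp90 chaperone known as GRP94, had 1208, 1311, 1242, 1308 and 1321 CPM over BGN libraries, against 1280, 1231, 1343, 1413 and 1337 CPM over Control libraries. The lowest libraries were BGN replicate 1, Control replicate 2 and BGN replicate 3, the same libraries as for Hspa5. The means were 1278 ± 49.9 CPM over BGN libraries and 1321 ± 69.0 CPM over Control libraries (log2 fold change -0.048 ± 0.042 SE, adjusted p = 0.965, edgeR). In the GENCODE M21 annotation, Hsp90b1 shares 415 exon bases with the opposite-strand pseudogene 1810014B01Rik, which averaged 102.5 counts per library against 25511 for Hsp90b1. On the same strand Hsp90b1 shares 133 bases with Gm25745 and 84 with Gm15344. The annotation used for counting is not stated.

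Calr, calreticulin, a calcium-binding lectin chaperone, had 1024, 1079, 1031, 1146 and 1162 CPM over BGN libraries, against 1123, 1043, 1127, 1189 and 1106 CPM over Control libraries. BGN replicates 1 and 3 and Control replicate 2 were again lowest. The means were 1088 ± 63.6 CPM over BGN libraries and 1118 ± 52.3 CPM over Control libraries, with a log2 fold change of -0.039 ± 0.045 (SE; adjusted p = 0.975, edgeR). Pdia4, a protein disulfide isomerase, had 283, 294, 306, 305 and 301 CPM over BGN libraries, against 279.7, 302, 309, 313 and 311 CPM over Control libraries. Here replicate 1 was lowest in each group, and the log2 fold change was -0.026 ± 0.041 (SE; adjusted p = 0.980, edgeR).

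The members that clear or hand over misfolded protein were close to 0 in the comparison. Herpud1, a membrane protein of ER-associated degradation (ERAD), had 36.7, 33.8, 35.3, 35.4 and 31.4 CPM over BGN libraries, against 39.1, 31.2, 35.4, 35.4 and 32.3 CPM over Control libraries. The highest and the lowest library both belonged to Control. Its log2 fold change was -0.0059 ± 0.064 (SE; adjusted p = 0.995, edgeR). The sign turned without BGN replicate 2 or 5, without Control replicate 1, 3 or 4, with limma-voom, and without both libraries numbered 5. Dnajb9, the J-domain co-chaperone ERdj4, had 95.03, 86.7, 99.4, 88.3 and 76.0 CPM over BGN libraries, against 83.9, 96.5, 91.5, 83.8 and 81.6 CPM over Control libraries. BGN held both the highest library, replicate 3, and the lowest, replicate 5. The log2 fold change was 0.026 ± 0.064 (SE; adjusted p = 0.986, edgeR), and -0.017 without BGN replicate 3.

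The transcription factor genes Xbp1 and Atf4 had nearly equal means. Xbp1 had 450.1, 434, 487, 439 and 385 CPM over BGN libraries, against 444, 461, 434, 401 and 437 CPM over Control libraries. BGN again held both extremes, in the same libraries as for Dnajb9. The means were 439 ± 36.4 CPM over BGN libraries and 435 ± 21.8 CPM over Control libraries (log2 fold change 0.011 ± 0.051 SE, adjusted p = 0.993, edgeR), and the sign turned without BGN replicate 3 or Control replicate 4. Atf4, whose product is made mainly when eIF2alpha is phosphorylated, had 104, 102, 95.9, 99.1 and 107 CPM over BGN libraries, against 109, 99.8, 97.6, 99.7 and 103 CPM over Control libraries. Its log2 fold change was -0.0026 ± 0.044 (SE; adjusted p = 0.996, edgeR), with a 95% interval from -0.093 to 0.088. The sign turned without BGN replicate 3 or 4, without Control replicate 1 or 5, and with limma-voom.

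The scarcest members, Ddit3 and Trib3, had the lowest estimates. Ddit3, which encodes the stress transcription factor CHOP, had 8.82, 8.10, 8.74, 6.75 and 7.66 CPM over BGN libraries, against 8.31, 10.8, 9.69, 8.07 and 9.73 CPM over Control libraries. The 3 highest libraries were Control and the 2 lowest BGN, with overlap between them. The means were 8.01 ± 0.856 CPM over BGN libraries and 9.31 ± 1.12 CPM over Control libraries. The fold change was 0.859 (95% interval 0.739 to 0.998), the unadjusted p was 0.0478 and the adjusted p 0.945 by edgeR. In the GENCODE M21 annotation the exons of Ddit3 share 68 bases with those of the opposite-strand gene Mars, which encodes methionyl-tRNA synthetase. Without a stated strand setting, reads from that stretch cannot be told apart.

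Trib3, a pseudokinase that binds AKT and ATF4, had 9.91, 9.96, 11.9, 11.3 and 8.84 CPM over BGN libraries, against 10.2, 12.4, 11.6, 12.2 and 13.5 CPM over Control libraries. The lowest 3 libraries were BGN and the highest 3 Control. The means were 10.4 ± 1.23 CPM over BGN libraries and 12.0 ± 1.24 CPM over Control libraries, which is 0.866-fold (95% interval 0.753 to 0.996, unadjusted p = 0.0439, adjusted p = 0.945, edgeR). Unadjusted p-values under 0.05 with lower values in BGN were found for 2.38% of all tested genes, and in either direction for 4.81%. Without single libraries the log2 fold change ran from -0.27 to -0.16 for Ddit3 and from -0.26 to -0.15 for Trib3, and the unadjusted p from 0.0219 to 0.161 and from 0.0148 to 0.134. Without BGN replicate 2, BGN replicate 5 or Control replicate 5, 0 members had an unadjusted p under 0.05 by edgeR. With both libraries numbered 5 left out, which include the lowest and the highest of Trib3, the log2 fold change was -0.11 for Trib3 (unadjusted p = 0.29, edgeR) and -0.19 for Ddit3 (unadjusted p = 0.125, edgeR). Depth is part of the limit on these estimates: Ddit3 averaged 170.2 and Trib3 219.5 counts per library. Counting error alone gives a coefficient of variation (CV) of 7.67% for Ddit3 and 6.75% for Trib3. The CV over the 10 libraries was larger, at 13.4% for Ddit3 and 12.8% for Trib3.

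**Figure D2:**
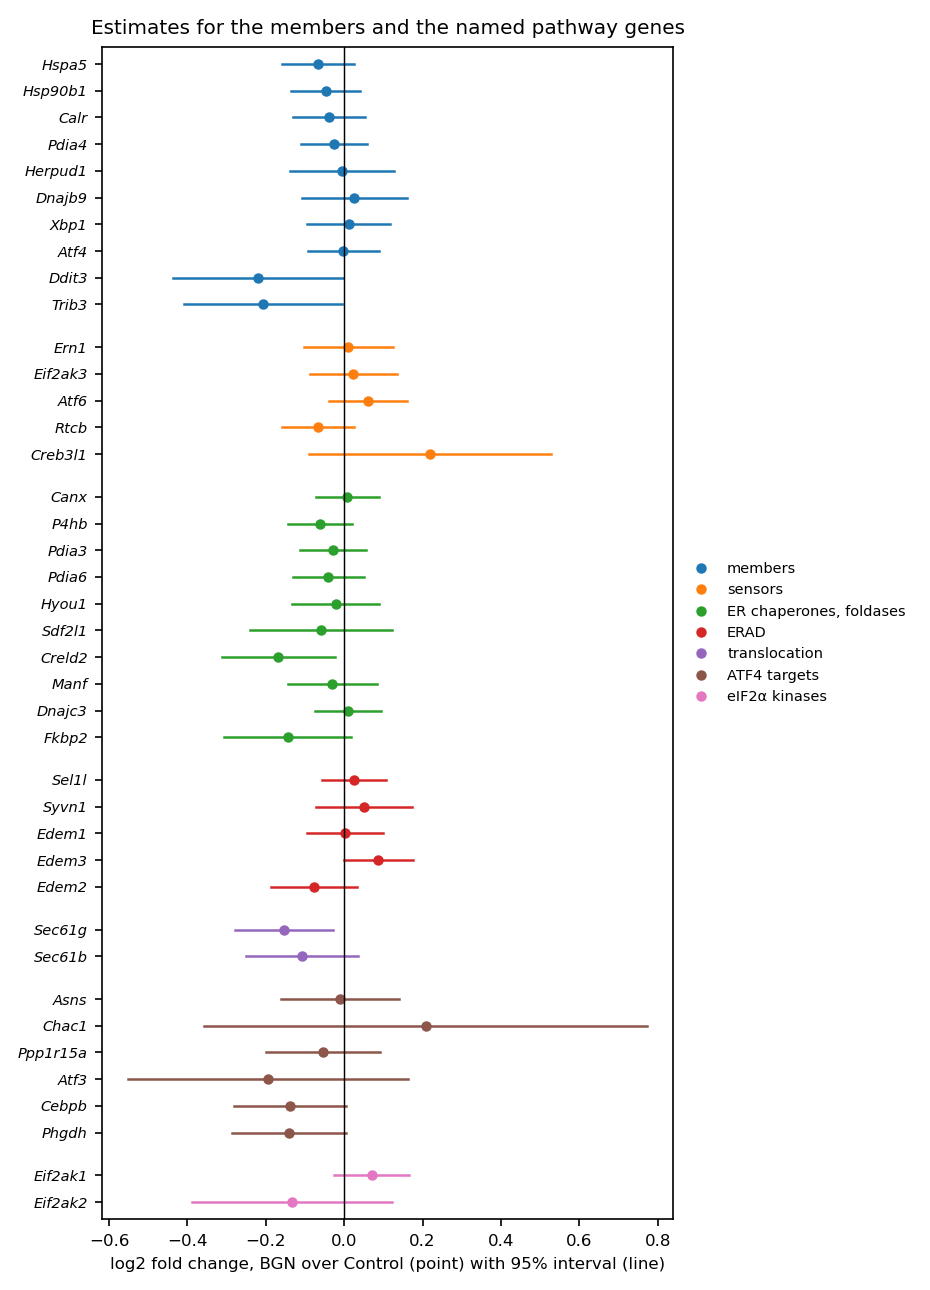
Log2 fold change of BGN over Control (points) with its 95% interval (lines) by edgeR, for the 10 members at the top and for the named genes of the 6 pathway lists below them, coloured by list. Intervals that leave out 0 belong to Ddit3, Trib3, Creld2 and Sec61g, and none of these genes passed the adjusted threshold.

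Among levels per length, Calr stood highest at 378 ± 22.1 CPM per kilobase of exon in BGN and 388 ± 18.2 in Control, followed by Hsp90b1 (317 ± 12.4 and 328 ± 17.1) and Hspa5 (214 ± 9.27 and 224 ± 13.5). Xbp1 came next at 135 ± 11.2 CPM per kilobase in BGN and 134 ± 6.72 in Control, overlapping with Pdia4 at 124 ± 3.98 and 126 ± 5.76. Atf4 reached 43.1 ± 1.82 CPM per kilobase in BGN and 43.2 ± 1.95 in Control, Dnajb9 35.0 ± 3.50 and 34.3 ± 2.46, and Herpud1 14.8 ± 0.877 and 14.9 ± 1.33. Trib3, at 4.89 ± 0.580 and 5.64 ± 0.583 CPM per kilobase, and Ddit3, at 4.68 ± 0.500 and 5.44 ± 0.652, overlapped with each other at the bottom. Apart from the pairs of Xbp1 with Pdia4 and of Trib3 with Ddit3, the ranges over the 10 libraries of neighbours in this order did not overlap. Exon length was the union of annotated exons of GENCODE M21, so a length that these cells do not use would shift a gene in this order.

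The wider pathway was described by 6 lists of 105 genes, of which 104 were tested. Across them 0 genes were called higher and 0 lower by edgeR at an adjusted p under 0.05, and DESeq2 and limma-voom also called 0. An unadjusted p under 0.05 was found for 2 by edgeR and for 3 each by DESeq2 and limma-voom. Over all 14415 tested genes it was found for 694 by edgeR (4.81%), 662 by DESeq2 and 808 by limma-voom. Of 10 tested sensors and their processing factors, 5 had estimates above and 5 below 0 (median log2 fold change 0.0050). Ern1, which encodes IRE1, stood at 30.9 ± 0.943 CPM over BGN libraries and 30.7 ± 1.43 CPM over Control libraries. Eif2ak3, which encodes PERK, was at 45.3 ± 1.87 CPM over BGN libraries and 44.6 ± 2.91 CPM over Control libraries, and Atf6 at 58.1 ± 2.86 and 55.7 ± 2.23 CPM (log2 fold changes 0.023 and 0.060). The transcripts of all 3 sensors were thus detected at 30.7 CPM or more in both groups. Rtcb, the ligase that joins the Xbp1 exons after IRE1 cleavage, had a log2 fold change of -0.068, and Creb3l1, a membrane-bound transcription factor gene, of 0.22.

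Of 22 further ER chaperones and foldases, 16 had estimates below and 6 above 0 (median -0.035). Canx, the membrane-bound partner of calreticulin, was at 663 ± 17.3 CPM over BGN libraries and 659 ± 27.3 CPM over Control libraries (log2 fold change 0.0083). The disulfide isomerase genes P4hb, Pdia3 and Pdia6 had log2 fold changes of -0.062, -0.030 and -0.040. Hyou1, an ER Hsp110-type chaperone, stood at -0.022, Sdf2l1, a factor of the Hspa5 cycle, at -0.059, Manf, a secreted ER stress protein, at -0.031 and Dnajc3, the co-chaperone p58IPK, at 0.010. Creld2, an ER stress-inducible protein of the lumen, was at 29.2 ± 2.13 CPM over BGN libraries and 32.8 ± 3.38 CPM over Control libraries (log2 fold change -0.17, unadjusted p = 0.0246, adjusted p = 0.945, edgeR). Fkbp2, an ER prolyl isomerase, was at -0.14.

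ERAD genes split 7 above and 11 below 0 (median -0.0061, 18 tested). Sel1l and Syvn1, the adaptor and the ubiquitin ligase of the main ERAD complex, had log2 fold changes of 0.025 and 0.050. Among the lectins that pass on misfolded glycoproteins, Edem1 stood at 0.0022, Edem2 at -0.076 and Edem3 at 0.087. Genes of translocation into the ER split 11 above and 10 below 0 (median 0.00074, 21 tested). The translocon subunit gene Sec61g was at 32.2 ± 1.102 CPM over BGN libraries and 35.8 ± 3.05 CPM over Control libraries (log2 fold change -0.15, unadjusted p = 0.0187, adjusted p = 0.945, edgeR), and Sec61b had a log2 fold change of -0.11.

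Of 28 ATF4 targets, 21 had estimates below and 7 above 0 (median -0.028), against 52% of all tested genes below 0. Asns, asparagine synthetase, stood at 21.3 ± 1.92 CPM over BGN libraries and 21.5 ± 1.47 CPM over Control libraries, and Ppp1r15a, the GADD34 subunit that returns eIF2alpha to its unphosphorylated state, at 17.8 ± 1.24 and 18.5 ± 0.915 CPM. Chac1, which degrades glutathione, and Atf3, a stress transcription factor gene, were scarce, at 1.32 ± 0.327 and 3.12 ± 0.520 CPM over BGN libraries and 1.14 ± 0.441 and 3.58 ± 0.891 CPM over Control libraries. Cebpb, a partner of CHOP, had a log2 fold change of -0.14 and Phgdh, the first enzyme of serine synthesis, also of -0.14. Of 5 eIF2alpha kinases and phosphatase factors, 3 lay above and 2 below 0 (median 0.0015). Eif2ak1, the heme-regulated kinase gene, was at 0.070 and Eif2ak2, the double-stranded RNA-activated kinase gene, at -0.13. Without Control replicate 5, the log2 fold change was -0.048 for Fkbp2, -0.068 for Cebpb, -0.031 for Rtcb, -0.040 for Edem2, -0.037 for P4hb, -0.00077 for Sdf2l1, -0.10 for Atf3, 0.0043 for Chac1 and -0.22 for Eif2ak2. Other single libraries also moved estimates by over 1.5 times, to 0.031 for Atf6 without BGN replicate 3, 0.34 for Creb3l1 without BGN replicate 5 and -0.057 for Sec61b without Control replicate 1, among others. Creld2 and Sec61g each stood at -0.11 without Control replicate 5, with unadjusted p-values of 0.0957 and 0.0679 by edgeR. Bgn, the transcript of the added protein, stood at 9.74 ± 1.71 CPM over BGN libraries and 7.38 ± 1.88 CPM over Control libraries, which is 1.32-fold (95% interval 1.04 to 1.68, unadjusted p = 0.027, adjusted p = 0.945, edgeR).

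The spread of single members from library to library was set beside counting error and then compared between members. The CV over the 10 libraries was 5.53% for Hspa5, where counting error gives 0.742%, and 4.70% for Hsp90b1, where it gives 0.626%. The biological CV common to all tested genes was 6.85% by edgeR. That value is within groups and leaves out counting error, whereas the CVs of the members include counting error and any group difference. The CV of the members was 5.18% for Calr, 6.49% for Xbp1, 8.29% for Dnajb9 and 13.4% for Ddit3. Pearson's r and Spearman's rho of log2 CPM were computed over the 10 libraries for all 45 pairs of members, with permutation p-values (100000 resamples, two-sided) adjusted over the 45 pairs. By Pearson's r, 6 pairs had an adjusted p under 0.05, 4 positive and 2 negative, and 12 had an unadjusted p under 0.05. By Spearman's rho 0 pairs had an adjusted p under 0.05 in the same permutation test, the smallest being 0.0642. The share of pairs among all tested genes that would pass was not computed. Values as strong occur outside the members. Over the 14405 other tested genes r ran from -0.93 to 0.95 with Hspa5 and from -0.96 to 0.98 with Dnajb9.

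Hspa5, Hsp90b1 and Calr varied together across libraries. Any part of the ERSE in their promoter windows in this was not tested. Hspa5 and Hsp90b1 had r = 0.91 (permutation p = 0.00048, adjusted p = 0.0214) and rho = 0.88 (permutation p = 0.00173). Hsp90b1 and Calr had r = 0.88 (permutation p = 0.00097, adjusted p = 0.0214) and rho = 0.78 (permutation p = 0.0105). Hspa5 and Calr had r = 0.83 (permutation p = 0.00359, adjusted p = 0.0323) and rho = 0.83 (permutation p = 0.00498). Without the 2 libraries farthest from the median of the first gene of each pair, r was 0.91, 0.76 and 0.95. The libraries left out were Control replicates 4 and 5 for the Hspa5 pairs. For Hsp90b1 with Calr they were BGN replicate 1 and Control replicate 4. Pdia4, the other chaperone, had r = 0.45 with Hspa5, 0.59 with Hsp90b1 and 0.36 with Calr, and Herpud1, with ERSE-II, had r = -0.13, -0.079 and 0.016 (no adjusted permutation p of these 6 pairs was under 0.05).

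Dnajb9 and Xbp1 varied together, and 2 of their 6 pairs with Hspa5, Hsp90b1 and Calr passed, both negative. The r of Dnajb9 with Xbp1 was 0.85 (permutation p = 0.00143, adjusted p = 0.0214) and rho 0.81 (permutation p = 0.00713), with r = 0.60 without the 2 libraries farthest from the median of Dnajb9. Hspa5 and Dnajb9 had r = -0.81 (permutation p = 0.00499, adjusted p = 0.0374) and rho = -0.85 (permutation p = 0.00289). Without the 2 libraries farthest from the median of Hspa5, Control replicates 4 and 5, r was -0.88. Without the 3 libraries lowest in Hspa5, r was -0.44 (permutation p = 0.328). Calr and Xbp1 had r = -0.81 (permutation p = 0.00254, adjusted p = 0.0286) and rho = -0.77 (permutation p = 0.0127). Without the 2 libraries farthest from the median of Calr, BGN replicates 1 and 3, r was -0.77. The other 4 pairs missed the threshold. Hspa5 with Xbp1 had r = -0.72 (adjusted permutation p = 0.0988) and Calr with Dnajb9 r = -0.77 (adjusted permutation p = 0.0634). Hsp90b1 had r = -0.71 with Xbp1 (adjusted permutation p = 0.112) and r = -0.65 with Dnajb9 (adjusted permutation p = 0.166).

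**Figure D3:**
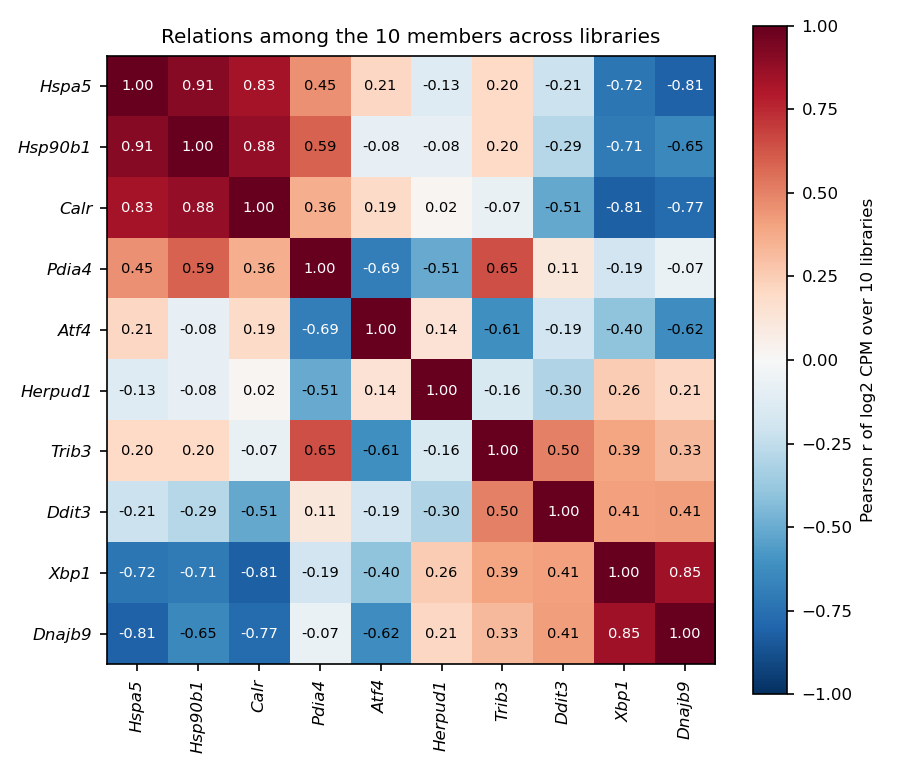
Pearson r of log2 CPM over the 10 libraries for every pair of members, from blue (-1) through white (0) to red (1). Hspa5, Hsp90b1 and Calr form a positive block (0.83 to 0.91), and their cells with Xbp1 and Dnajb9 lie between -0.81 and -0.65.

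Both groups showed these relations. Within the 5 BGN libraries r was 0.93 for Hspa5 with Hsp90b1, -0.95 for Hspa5 with Dnajb9 and 0.98 for Dnajb9 with Xbp1, and within the 5 Control libraries it was 0.87, -0.86 and 0.54; these are values over 5 libraries each and carry no test. On deviations from the group means, 10 pairs had an adjusted p under 0.05 in the permutation test. The deviations sum to 0 within each group and were permuted across groups, so these p-values are only approximate. BGN replicates 1 and 3 and Control replicate 2 stood at the low end of Hspa5, Hsp90b1 and Calr and at the high end of Dnajb9 and Xbp1. Relative to the mean of the 10 libraries their log2 CPM was -0.095, -0.10 and -0.090 for Hspa5 and 0.11, 0.18 and 0.13 for Dnajb9. Whether a pair was called depended on these libraries. With BGN replicate 1, BGN replicate 3 or Control replicate 2 left out, 0 pairs were called, and with Control replicate 4 left out, 2. The 3 libraries low in Hspa5 were also alike over all genes averaging 50 counts or more. Chi-square per degree of freedom, lower for libraries more alike, was 2.43 for BGN replicates 1 and 3. Control replicate 2 had 4.05 and 3.85 with them, and 4.22 to 14.75 with other Control libraries. Other pairs, such as Control replicate 4 with BGN replicate 4 (3.66), were also near. Any part of this in the member pairs was not tested. Over all single libraries left out, r ran from 0.88 to 0.95 for Hspa5 with Hsp90b1, from 0.83 to 0.90 for Hsp90b1 with Calr and from 0.77 to 0.95 for Hspa5 with Calr. It ran from 0.75 to 0.90 for Dnajb9 with Xbp1, from -0.90 to -0.76 for Hspa5 with Dnajb9 and from -0.85 to -0.76 for Calr with Xbp1. Without all 3 of the low libraries, which were picked for their Hspa5 level, 0 pairs were called over 7 libraries. There r was 0.74 for Hspa5 with Hsp90b1 (permutation p = 0.04), 0.42 for Hspa5 with Calr (p = 0.352), -0.44 for Hspa5 with Dnajb9 (p = 0.328) and 0.68 for Dnajb9 with Xbp1 (p = 0.111), and 0.0028 for Hsp90b1 with Dnajb9 (p = 0.997).

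**Figure D4:**
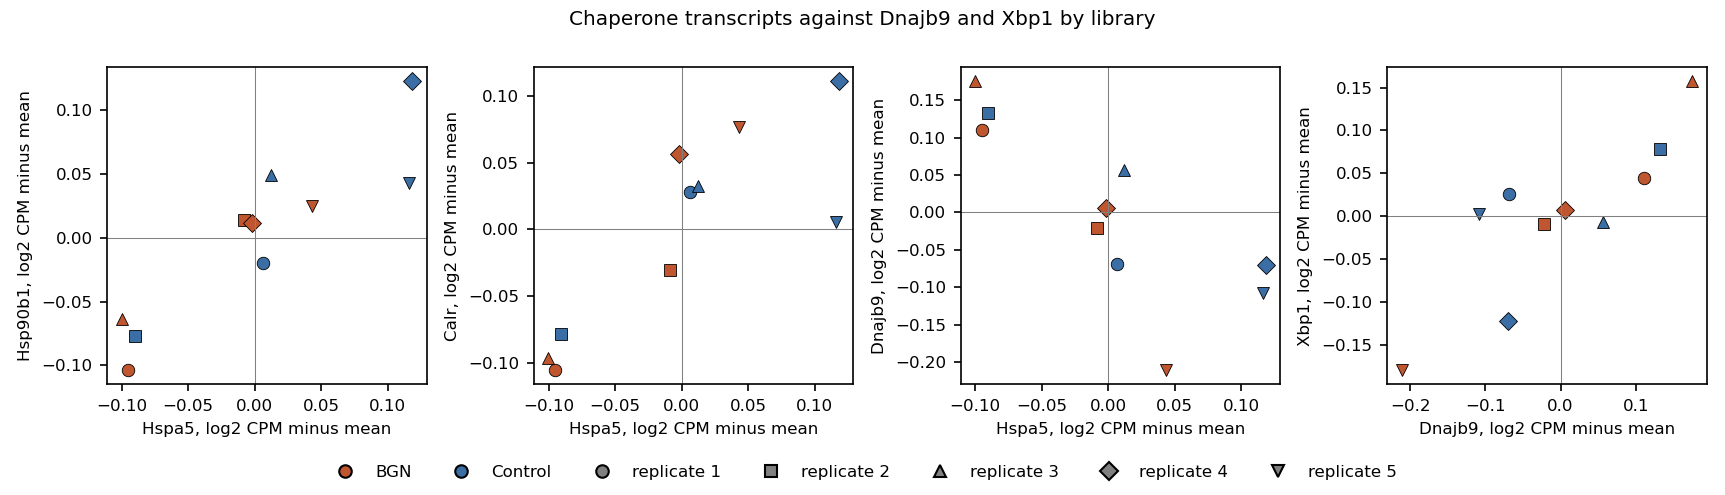
Log2 CPM of pairs of members, each minus its mean over the 10 libraries, with a point per library coloured by group (BGN, Control) and shaped by replicate number. BGN replicates 1 and 3 and Control replicate 2 lie at the lower left of the first 2 panels and at the upper left of the third, where Hspa5 is set against Dnajb9.

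Other transcripts were set against Hspa5 and Trib3 as a description, over 11964 other tested genes that averaged 50 counts or more. By r with Hspa5, Hsp90b1 ranked 10 and Calr 84 from the top, while Dnajb9 ranked 60 and Xbp1 253 from the bottom. The 5 genes outside the members with the highest r were Dnajb5 (0.95), Rangap1 (0.95), Pdia6 (0.94), Tomm40 (0.93) and Smc1a (0.93), over 10 libraries. Pdia6, a disulfide isomerase gene, is also on the chaperone list. In the chaperone list 18 of 22 genes had a positive r with Hspa5 (median 0.39), against 51.1% of all other tested genes, and ran from 0.94 for Pdia6 to -0.78 for Ero1a, an ER oxidase gene. ERSE stood in the windows of 5 of its 19 genes with a window, and their r with Hspa5 was 0.94 for Pdia6, 0.67 for Creld2, 0.39 for Dnajc3, 0.21 for Canx and -0.40 for Ero1b.

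The members downstream of ATF4 gave these values. Trib3 had r = 0.20 with Hspa5, 0.50 with Ddit3 and -0.61 with Atf4 (no adjusted permutation p under 0.05). Among all genes, those most like Trib3 were Prdx6 (0.92), Chst12 (0.91), Lmf1 (0.90), Ctdsp2-ps (0.90) and Lipe (0.89), again with no test. Ddit3 ranked 1024 and Pdia4 310 from the top of the 11964 genes by r with Trib3, and Atf4 367 from the bottom. Of 28 ATF4 targets, 20 had a positive r with Trib3 (median 0.19), against 50.7% of all other tested genes.

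Library measures and markers of other cell types are given beside these results. The mitochondrial share of reads was 1.155% in Control replicate 5 and 1.80% to 2.27% in the other libraries. Over 60 relations of the 10 members with the library total, the mitochondrial and ribosomal protein shares, the luminal and basal marker levels and Ldha, 1 had an unadjusted permutation p under 0.05 by Pearson's r and 0 an adjusted one (smallest 0.875). That relation was Xbp1 with Ldha (r = 0.75, rho = 0.52, permutation p = 0.0165 and 0.133), and without the 2 libraries farthest from the median of Ldha r was -0.050. By Spearman's rho, Ddit3 had unadjusted permutation p-values under 0.05 with the mitochondrial share (rho = -0.72, p = 0.0227) and with the basal marker level (rho = 0.68, p = 0.0343). Pearson's r of these relations was -0.51 and 0.60 (permutation p = 0.15 and 0.066), and -0.84 and 0.48 without the 2 libraries farthest on each measure. The 7 T cell markers summed to at most 0.109 CPM over BGN libraries and 0.106 CPM over Control libraries, the 9 fibroblast markers to 46.4 to 52.7 CPM over BGN libraries and 40.6 to 59.8 CPM over Control libraries, and the 10 myeloid markers, mostly Cd14, to 404 to 436 CPM over BGN libraries and 399.9 to 466.5 CPM over Control libraries. The 12 luminal markers summed to 5027 to 5342 CPM over BGN libraries and 5279 to 5555 CPM over Control libraries, and the 10 basal markers to 6097 to 6448 CPM over BGN libraries and 6069 to 7388 CPM over Control libraries. The 8 endothelial markers summed to 4.93 to 6.04 CPM over BGN libraries and 5.46 to 6.45 CPM over Control libraries, with Cldn5 at 0 throughout. The 6 adipocyte markers summed to 0.367 to 1.23 CPM over BGN libraries and 0.318 to 1.41 CPM over Control libraries, and the 5 red cell genes to 0.0987 to 0.403 and 0.0945 to 0.379 CPM. The part of any of these in the members' values was not tested.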

How the data were processed

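RNA was poly-A selected and made into libraries with a NEBNext kit, per the labels' protocols. The authors deposited whole-number read counts for each gene symbol and sample. Per the submitters' processing notes, the tools were cutadapt 1.9.1, FastQC, HTSeq, HISAT2 2.2.1 and DESeq2, on GRCm39, with no roles stated. No annotation release or strand setting is given in the sources. edgeR 4.0.16, run in R 4.3.3, fitted treatment alone by its robust quasi-likelihood method to the 14415 genes kept by filterByExpr, with TMM factors, and p-values were adjusted over all of these genes (Benjamini-Hochberg). SE is the size of the log2 fold change divided by the root of F. Log2 CPM used a prior count of 2. Marker sums were scaled by library totals alone. The result of 1 list of markers of another cell type is not reported here. The steps were tested on simulated data. Members, lists, motifs and tests were chosen with earlier results of these data known. Named genes were the members, 20 fixed genes, the 2 of smallest p in each pathway list, and the 5 genes most like Hspa5 and the 5 most like Trib3. Sars1, Wars1 and Gars1 were matched through synonyms. No repeat deposit of a library was found (chi-square per degree of freedom 2.43 to 18.1 within groups). Alternatives were DESeq2 1.42.0, limma-voom with quality weights (limma 3.58.1), other scalings and filters, no robust estimation, a replicate block and leaving out libraries. Those chosen after seeing the data were leaving out libraries in the pair correlations, the library measures and the alternatives for the pathway-list counts. The reference annotation was of GRCm38, so coordinates are given only with the RefSeq promoter windows.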

Additional observations from a re-analysis of the deposited data

Results flagged for a closer look

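Over 41 named genes in 2 groups, 82 sets of 5 libraries were searched for a library far from the others, where chance gives about 1 in 20, and 3 were found. Hyou1 reached 151 CPM in BGN replicate 5, above 134.9 to 139.6 CPM in the other BGN libraries. Creb3l1 stood at 3.28 CPM in BGN replicate 5, below 5.11 to 5.60 CPM in the other BGN libraries. Fkbp2 reached 32.4 CPM in Control replicate 5, above 23.2 to 24.8 CPM in the other Control libraries. No member of the pathway set was among them.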

How the results depend on the processing

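No member and no gene of the 6 pathway lists was called under any alternative run. Over all genes 3 were called without the filter on low counts, and 0 under the other settings. With the replicate block 0 genes, 0 members and 0 pathway genes were called. The numbers were not taken to pair the samples. On deviations of log2 CPM from the group means, r over all tested genes between same-numbered libraries was -0.0198, 0.201, 0.0153, 0.0317 and 0.0526. Only that of number 2 was over 0.1. Estimates changed sign with library totals alone for Edem1 (-0.0023), with limma-voom for Herpud1 (0.010), Atf4 (0.0040) and Canx (-0.011), and without both libraries numbered 5 for Herpud1 (0.0054), Ern1 (-0.012) and Canx (-0.012). Without single libraries the log2 fold change ran from -0.042 to 0.040 for Herpud1, -0.017 to 0.080 for Dnajb9, -0.029 to 0.056 for Xbp1, -0.020 to 0.024 for Atf4, -0.0045 to 0.037 for Ern1, -0.0042 to 0.051 for Eif2ak3, -0.0092 to 0.027 for Canx, -0.056 to 0.013 for Hyou1, -0.064 to 0.012 for Manf, -0.0070 to 0.036 for Dnajc3, -0.020 to 0.035 for Edem1 and -0.056 to 0.026 for Asns. The 6 called pairs became 7 with library totals alone, 10 on deviations from the group means, 3 without the 2 farthest libraries, 0 to 8 without single libraries, 9 without both libraries numbered 5 and 0 without the 3 lowest in Hspa5. The cause was not tested.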
